A study of Bubalus bubalis with 9 samples.

Results

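Ion channel genes of granulosa cells were followed through follicle degeneration in Chinese buffalo (Bubalus bubalis). The genes belong to the potassium, voltage-gated calcium and voltage-gated sodium channel families and to the glutamate, GABA-A and nicotinic receptor families. Members were chosen by gene name and then selected on level: a gene was kept if its mean in healthy, early atretic or late atretic follicles reached 10 normalized read counts. Of 20801 genes in the tables, 181 matched by name, and 75 of these reached the level. The members comprise 40 potassium channel genes, 13 calcium channel genes, 7 sodium channel genes and 15 genes of ligand-gated channels. RNA came from granulosa cells of 3 healthy, 3 early atretic and 3 late atretic follicle samples, 9 in all, and no treatment, age or genotype is given for any of them. The labels do not say that samples came from separate animals, so the deposited p-values can reflect technical spread alone.

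Granulosa cells line the ovarian follicle, respond to gonadotropins and make estradiol and inhibin. Atresia is the degeneration of a follicle that will not ovulate, and granulosa cells die during it. Potassium channels set the resting membrane potential, and loss of potassium with cell shrinkage is a known step of apoptosis in many cell types. Voltage-gated calcium and sodium channels open on depolarization, and calcium entry is one of the signals that act on steroid synthesis. Glutamate and nicotinic receptors are cation channels opened by their ligands, and GABA-A receptors are ligand-gated chloride channels.

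The authors' deposited tables hold, for each gene, the mean normalized read count of each group. They also hold the log2 fold change, p-value and adjusted p of 3 comparisons. Values of single samples were not used here, so the spread within a group and whether groups overlap are not given for any gene. An error written as ± is the standard error implied by a fold change and its p under a two-sided normal test, and a gene is called where the deposited adjusted p was below 0.05. Healthy and early atretic means set beside late atretic means come from another table, and the same healthy means differed by a median ratio of 1.03 between both tables. The means are not divided by transcript length, so levels of different genes are not compared. Group totals ranged from 13141820 to 14490733 normalized counts, and the depth of each library is unknown.

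Of the 106 matched genes left out, 25 had means of 0 in all 3 groups, 28 stayed under 1 and 53 had a highest mean of 1 or more but under 10. Just outside the limit were CACNB4, with a highest mean of 9.63, KCNN3 with 9.05, KCNH1 with 8.98, KCNK2 with 8.53 and KCNE3 with 8.35 in the authors' deposited tables. Just inside it were CACNA1I with 10.6, KCNG3 with 10.8, GABRB1 with 11.3, KCNRG with 11.4 and GRIN1 with 11.7. The mean reached 10 in all 3 groups for 48 members, in 2 groups for 16 and in 1 group for 11. It reached 10 in healthy follicles for 56 members, in early atretic follicles for 64 and in late atretic follicles for 67. A gene near the limit that passed through 1 group only is higher there by the way it was chosen.

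Early atretic follicles had more channel genes called than late atretic follicles, and so did the whole series, with 2251 genes called in early and 761 in late. Both directions occurred in each comparison with healthy follicles. In early atretic against healthy follicles, 16 of 75 members were higher (21.3%) and 6 lower (8.0%) by the authors' deposited adjusted p. Among all tested genes 8.59% were higher and 4.35% lower, and among tested genes that reached the same level 10.9% were higher and 5.56% lower. In late atretic against healthy follicles, 5 of 71 members with a p were higher (7.04%) and 3 lower (4.23%) in the authors' deposited table. The background there was 3.98% higher and 0.397% lower over all tested genes, and 5.09% higher and 0.509% lower at the same level. Nothing is read from these shares, since the members were selected on group means of the same comparisons. In late against early atretic follicles, 0 of 72 members with a p were called, against 4 higher and 6 lower at an unadjusted p below 0.05. That table called 0.108% of all tested genes and 0.140% of those at the same level. In all, 24 members were called in at least 1 comparison and 51 in none, and 6 were called in both comparisons with healthy follicles, which share the healthy samples.

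The median log2 fold change of the members was 0.09 in early atretic against healthy follicles, beside 0.02 over all tested genes. In late atretic against healthy follicles the members' median was -0.10, beside 0.03 over all tested genes. In late against early atretic follicles it was -0.03, beside 0.06. The median implied error was wider for members than for all genes at the same level, at 0.64 against 0.27 in the early atretic comparison and 0.74 against 0.34 in the late one. In healthy follicles 10 members had means under 3 normalized counts, and 8 of them are among the 16 higher in early atretic follicles. These 8 became members through an atretic group, which the counts by class carry with them, and their fold change rests on very few reads in healthy follicles, so its size is uncertain.

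**Figure D1:**
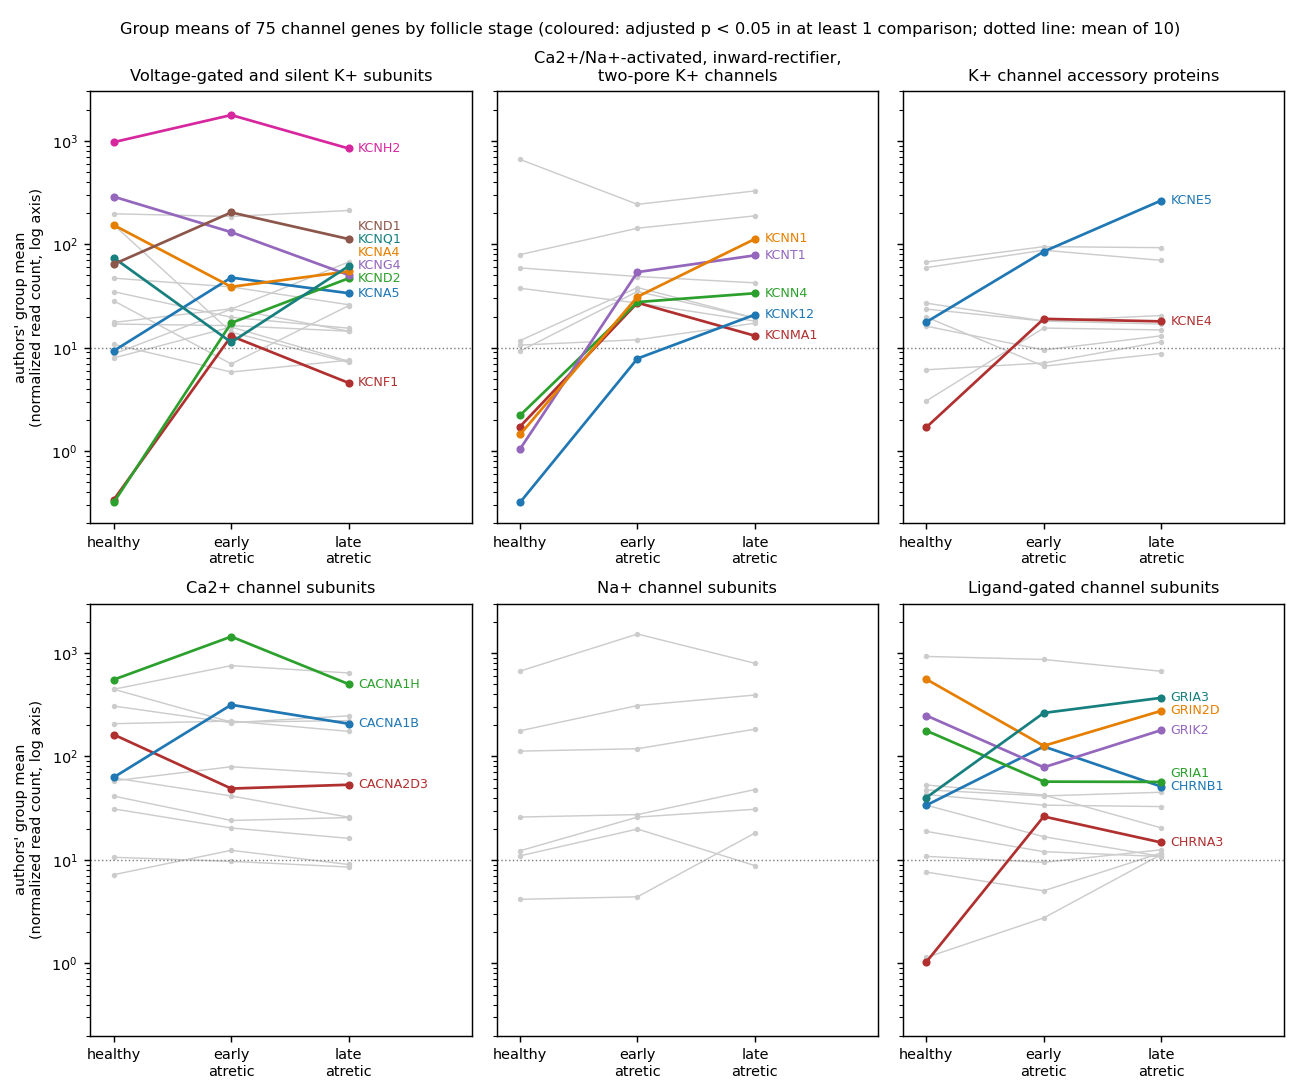
Authors' group means (normalized read count, log axis) of the 75 channel genes in healthy, early atretic and late atretic follicles, by family; 1 line per gene. Coloured and named genes had an adjusted p below 0.05 in at least 1 comparison, grey genes in none, and the dotted line marks the mean of 10 used to select members; the activated potassium channel genes KCNT1, KCNN1, KCNN4 and KCNMA1 start under 3 in healthy follicles, and no sodium channel gene is coloured.

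Of the potassium channels opened by intracellular calcium or sodium, 8 matched by name, and KCNT1, KCNN1, KCNN4 and KCNMA1 were called higher in early atretic follicles. These 4 reached the level of 10 in the atretic groups alone, so the way members were chosen favours a higher call, and their count is no result about the class. KCNN2, the other member, did not pass, and KCNN3, KCNT2 and KCNU1 stayed under the level. KCNT2, another sodium-activated channel, averaged 0.71 in early atretic and 3.36 in healthy follicles (-2.31 ± 1.98, log2; adjusted p = 0.56, per the authors' deposited table). KCNT1, a sodium-activated potassium channel, had means of 1.05 in healthy, 53.8 in early atretic and 78.1 in late atretic follicles. It had almost no reads in healthy follicles and was present in both atretic groups. Its log2 fold change in early atretic against healthy follicles was 5.69 ± 1.14 (adjusted p = 3.0e-05 in the authors' deposited table). KCNN1, a small-conductance calcium-activated channel, had means of 1.45 in healthy, 31.1 in early atretic and 113 in late atretic follicles. Early atretic follicles had 4.46 ± 1.13 more on the log2 scale than healthy ones (adjusted p = 0.0015, per the authors' deposited table). For late atretic against healthy follicles the authors' deposited table gives log2 fold changes of 6.26 for KCNT1 and 6.34 for KCNN1 but no p, so neither could be called. The reason for the missing p is not given. Without values per sample it is unknown whether a single sample carries these late means.

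KCNN4, the intermediate-conductance calcium-activated channel known from red cells and immune cells, was called in both comparisons. Its means were 2.22 in healthy, 27.6 in early atretic and 33.6 in late atretic follicles. The authors' deposited tables give log2 fold changes of 3.68 ± 1.18 in early atretic (adjusted p = 0.018) and 4.0 ± 1.09 in late atretic follicles (adjusted p = 0.0098). KCNMA1, the large-conductance calcium- and voltage-gated channel, had means of 1.73 in healthy, 27.2 in early atretic and 13.1 in late atretic follicles. It rose in early atretic follicles by 3.97 ± 1.30 (log2; adjusted p = 0.023, per the authors' deposited table), and its log2 fold change of 2.95 ± 1.19 in late atretic follicles did not pass (adjusted p = 0.18). KCNMB4, an accessory beta subunit of that channel, had means of 3.06 in healthy, 15.5 in early atretic and 14.9 in late atretic follicles. Against healthy follicles its adjusted p was 0.16 for early and 0.35 for late atretic ones in the authors' deposited tables, with an unadjusted p of 0.034 and 0.039. KCNN2, another small-conductance channel, had means of 79.4 in healthy, 143 in early atretic and 188 in late atretic follicles, with adjusted p-values of 0.17 and 0.50 for early and late atretic follicles in the authors' deposited tables.

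Among 14 voltage-gated potassium channel genes, early atretic follicles had 4 higher and 2 lower, and none was called in late atretic follicles, where 12 had a p and 1 had an unadjusted p below 0.05. Beside these counts, tested genes at the same level were higher in 10.9% and lower in 5.56% in early atretic follicles. In late atretic follicles the shares were 5.09% and 0.509%. Of the 4 higher genes, KCND2 and KCNA5 reached the level in the atretic groups alone. That favours a higher call, so the count is no result about the class. KCNH2, the ether-a-go-go related channel that repolarizes the heart, averaged 1774 normalized counts in early atretic and 971 in healthy follicles. It rose by 0.87 ± 0.29 on the log2 scale there (adjusted p = 0.025, per the authors' deposited table). In late atretic follicles it averaged 843, against 945 in healthy follicles of that table, a log2 difference of -0.16 ± 0.35 by the authors' deposited table.

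The genes of the KCND family encode A-type channels, which carry a fast, transient potassium current. KCND1 averaged 203 in early atretic and 64.2 in healthy follicles, and it rose by 1.66 ± 0.38 (log2; adjusted p = 0.00038, per the authors' deposited table). KCND2 had means of 0.32 in healthy, 17.4 in early atretic and 46.9 in late atretic follicles, and KCND3 of 8.71, 23.6 and 67.3 in the same order. KCND2 was higher in early atretic follicles, with a log2 fold change of 5.54 ± 1.92 (adjusted p = 0.034, per the authors' deposited table). KCND3 did not pass there (1.45 ± 0.96, adjusted p = 0.39, per the authors' deposited table). The authors' deposited table gives no p for either gene in late atretic against healthy follicles, where the log2 fold changes were 7.20 and 3.00. Here too it is unknown whether a single sample carries the late means. KCNIP2 and KCNIP4, which encode calcium-binding partners of KCND channels, were not called in any comparison. KCNIP4 averaged 6.63 in early atretic and 19.8 in healthy follicles (adjusted p = 0.18, per the authors' deposited table).

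In the KCNA family, which encodes the Shaker-related channels, KCNA5 and KCNA4 moved in opposite directions. KCNA5, a delayed rectifier, averaged 47.6 in early atretic and 9.34 in healthy follicles and rose by 2.35 ± 0.52 (log2; adjusted p = 0.00022, per the authors' deposited table). KCNA4, an A-type member, averaged 38.8 in early atretic and 153 in healthy follicles and fell by 1.98 ± 0.39 (log2; adjusted p = 2.1e-05, per the authors' deposited table). In late atretic against healthy follicles neither passed, at log2 fold changes of 1.89 ± 0.70 for KCNA5 and -1.44 ± 0.86 for KCNA4 in the authors' deposited table. KCNA2 averaged 6.97 in early atretic and 28.4 in healthy follicles, with a wide error (-2.00 ± 1.20 on the log2 scale, adjusted p = 0.32, per the authors' deposited table). KCNB2, a slow delayed rectifier, had means of 197 in healthy, 185 in early atretic and 212 in late atretic follicles and was not called.

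KCNQ1, which carries slow repolarizing current in the heart and potassium recycling in epithelia, had its lowest mean in early atretic follicles. Its means were 73.9 in healthy, 11.3 in early atretic and 61.5 in late atretic follicles. It fell in early atretic follicles by 2.71 ± 0.63 (log2; adjusted p = 0.00044, per the authors' deposited table), and in late atretic follicles its log2 fold change was -0.23 ± 0.87 (adjusted p = 0.98, per the authors' deposited table). Late against early atretic follicles gave 2.49 ± 0.90 (unadjusted p = 0.0054, adjusted p = 0.53, per the authors' deposited table), so that difference did not pass. The sources used here do not say whether counting was by strand, so reads of antisense transcripts in a gene such as KCNQ1 cannot be told apart.

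KCNE genes encode single-pass accessory proteins, and KCNE4 and KCNE5 are known to reduce KCNQ1 current in studies of human channels. KCNE5 had means of 17.7 in healthy, 84.9 in early atretic and 265 in late atretic follicles. It rose in early atretic follicles by 2.26 ± 0.75 (log2; adjusted p = 0.026) and in late atretic follicles by 3.94 ± 0.78 (adjusted p = 6.1e-05), both against healthy follicles in the authors' deposited tables. Late against early atretic follicles gave 1.70 ± 0.51 for KCNE5 (unadjusted p = 0.00096, adjusted p = 0.22, per the authors' deposited table). KCNE4 had means of 1.70 in healthy, 19.0 in early atretic and 18.0 in late atretic follicles. It passed in early atretic follicles (3.48 ± 1.25 on the log2 scale, adjusted p = 0.043) and not in late atretic ones (3.43 ± 1.20, adjusted p = 0.082) in the authors' deposited tables. Of the 10 accessory genes, the other 8 were not called, among them KCNAB1 and KCNAB2, beta subunits of KCNA channels, with highest means of 87.5 and 94.8 in the authors' deposited tables.

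The silent subunits of the KCNF and KCNG families form no channel alone and modify KCNB channels. KCNG4 had means of 288 in healthy, 131 in early atretic and 50.5 in late atretic follicles, each lower than the one before. In late atretic follicles it fell by 2.47 ± 0.53 (log2; adjusted p = 0.00028, per the authors' deposited table). In early atretic follicles its log2 fold change of -1.14 ± 0.46 did not pass (adjusted p = 0.084, per the authors' deposited table). KCNG1 had means of 154 in healthy, 14.1 in early atretic and 7.21 in late atretic follicles, yet its errors were wide. The log2 fold changes were -3.44 ± 1.49 in early (adjusted p = 0.12) and -4.38 ± 1.72 in late atretic follicles (adjusted p = 0.16, per the authors' deposited tables). KCNF1 averaged 13.0 in early atretic and 0.34 in healthy follicles and was called higher (5.12 ± 1.46, log2; adjusted p = 0.0065, per the authors' deposited table). KCNG3, at the edge of the level limit, was not called.

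None of 3 inward-rectifier genes was called in either comparison with healthy follicles, and KCNJ8 alone had an unadjusted p below 0.05, in early atretic follicles. KCNJ8, a pore subunit of the ATP-sensitive potassium channel, averaged 243 in early atretic and 661 in healthy follicles (-1.44 ± 0.59, log2; adjusted p = 0.092, per the authors' deposited table). ABCC9, the gene next to it in the RefSeq assembly NDDB_SH_1, encodes a sulfonylurea receptor that assembles with this pore. ABCC9 averaged 136 in early atretic and 321 in healthy follicles (adjusted p = 0.10, per the authors' deposited table). KCNJ11 encodes the other pore subunit of this kind, and ABCC8, its neighbour in the same assembly, the other receptor. ABCC8 averaged 23.3 in early atretic and 66.5 in healthy follicles and fell by 1.51 ± 0.44 (log2; adjusted p = 0.0076), and KCNJ11 averaged 27.0 and 37.5 in the same groups (adjusted p = 0.71, per the authors' deposited table). KCNJ2, a strong inward rectifier, averaged 38.2 in early atretic and 11.7 in healthy follicles (adjusted p = 0.23, per the authors' deposited table).

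Two-pore domain channels carry the background leak of potassium. KCNK12, a member that gives no current on its own in expression studies, was the 1 of 4 that passed. Its means were 0.32 in healthy, 7.86 in early atretic and 20.9 in late atretic follicles. It was called higher in late atretic follicles (5.84 ± 1.43, log2; adjusted p = 0.0026) and not in early atretic ones (4.40 ± 1.72, adjusted p = 0.071) in the authors' deposited tables. KCNK12 reached the level in late atretic follicles alone, which favours a higher call there, so its call is no result about the class. KCNK3, an acid-sensitive leak channel, averaged 35.0 in early atretic and 9.28 in healthy follicles (adjusted p = 0.089, per the authors' deposited table). KCNK1 had means of 59.1 in healthy, 48.8 in early atretic and 42.4 in late atretic follicles, and KCNK5 had means of 10.6, 11.9 and 17.2 in the same order, with no call for either.

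**Figure D2:**
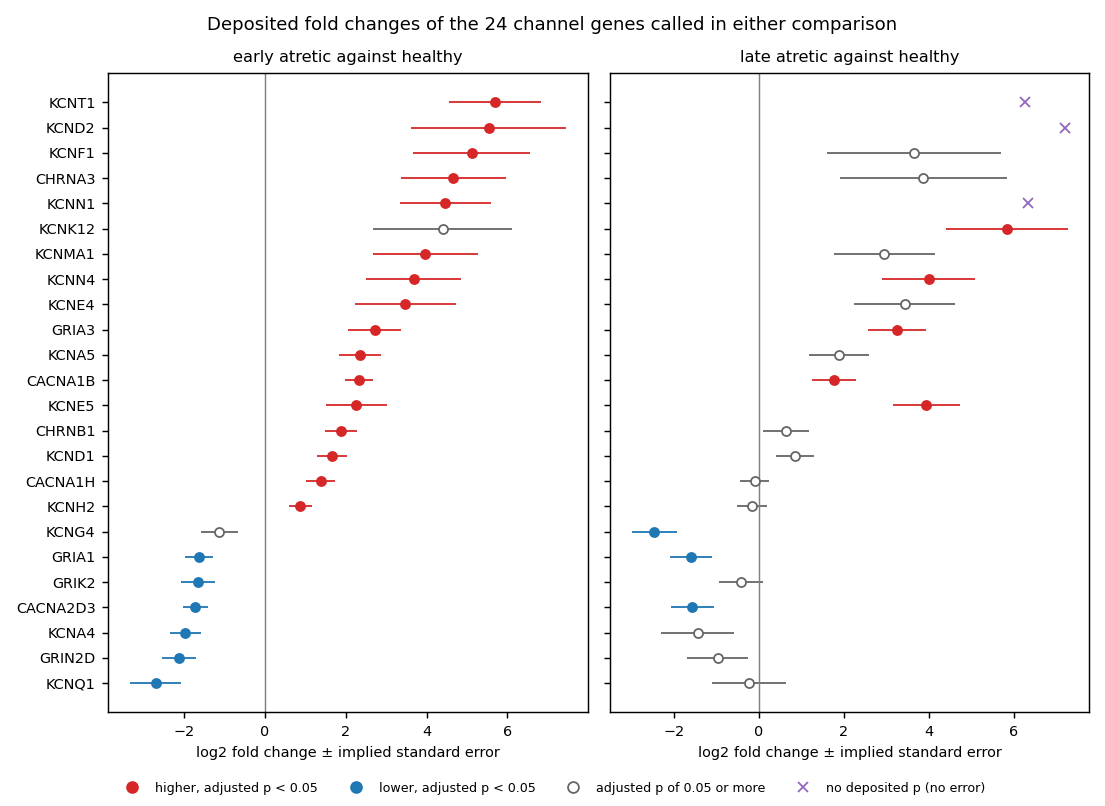
Deposited log2 fold changes with implied standard errors of the 24 channel genes called in early or late atretic against healthy follicles. Red and blue points passed as higher and lower, open points did not pass, and crosses mark KCNT1, KCND2 and KCNN1, for which the late table gives no p; the early atretic panel holds 16 red and 6 blue points and the late atretic panel 5 and 3.

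Of 7 pore subunit genes of calcium channels, 2 were higher in early atretic follicles and 1 of them again in late atretic follicles. Over tested genes at the same level, 10.9% were higher in early and 5.09% in late atretic follicles, and nothing is read from the class count. CACNA1B, the pore of the N-type channel known from nerve terminals, had means of 63.0 in healthy, 316 in early atretic and 207 in late atretic follicles. It rose by 2.33 ± 0.34 in early (adjusted p = 1.4e-09) and by 1.76 ± 0.52 in late atretic follicles (log2; adjusted p = 0.021, per the authors' deposited tables). CACNA1H, a low-voltage-activated T-type channel, averaged 1440.0 in early atretic and 553 in healthy follicles and rose by 1.38 ± 0.36 (log2; adjusted p = 0.0024, per the authors' deposited table). In late atretic follicles CACNA1H averaged 500.4, against 537 in healthy follicles of the same table (-0.10 ± 0.35, adjusted p = 0.98, per the authors' deposited table). Late against early atretic follicles gave -1.47 ± 0.41 for CACNA1H (unadjusted p = 0.00036, adjusted p = 0.13, per the authors' deposited table).

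The L-type pore genes CACNA1C and CACNA1D, which act in muscle and in endocrine cells, were not called. CACNA1C averaged 215 in early atretic and 446 in healthy follicles with an error as large as the change (-1.05 ± 1.11, log2; adjusted p = 0.68, per the authors' deposited table). CACNA1D had means of 62.1 in healthy, 41.5 in early atretic and 25.9 in late atretic follicles, with an adjusted p of 0.35 for late atretic follicles in the authors' deposited table. The other T-type genes CACNA1G and CACNA1I, with highest means of 41.4 and 10.6 in healthy follicles, were not called in the authors' deposited tables either.

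Among 6 accessory calcium channel genes, CACNA2D3 fell in both comparisons. It encodes an alpha2-delta subunit, which raises the number of channels at the membrane. Its means were 162 in healthy, 49.0 in early atretic and 53.3 in late atretic follicles. It fell by 1.73 ± 0.31 in early (adjusted p = 1.8e-06) and by 1.57 ± 0.50 in late atretic follicles (log2; adjusted p = 0.044, per the authors' deposited tables). The late call was lost when the authors' fold changes were re-centred to equal group totals (adjusted p = 0.066). CACNA2D1, of the same kind, had means of 307 in healthy, 212 in early atretic and 247 in late atretic follicles and was not called. The beta subunit gene CACNB3 averaged 755 in early atretic and 446 in healthy follicles (0.76 ± 0.34, log2; adjusted p = 0.13, per the authors' deposited table), and CACNB2 had means of 207 in healthy, 220 in early atretic and 175 in late atretic follicles.

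Sodium channel genes had no call: 0 of 7 members passed in any comparison by the authors' deposited adjusted p, against 2 higher at an unadjusted p below 0.05 in each comparison with healthy follicles. SCN9A, known from sensory neurons, had means of 177 in healthy, 310 in early atretic and 392 in late atretic follicles. Against healthy follicles its adjusted p was 0.070 for early and 0.26 for late atretic ones in the authors' deposited tables. SCN8A had means of 113 in healthy, 119 in early atretic and 184 in late atretic follicles, with adjusted p-values of 0.95 and 0.82 in the authors' deposited tables. SCN2B, a beta subunit gene, had means of 10.9 in healthy, 19.9 in early atretic and 8.81 in late atretic follicles.

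In early atretic follicles 3 of 8 ionotropic glutamate receptor genes were lower and 1 was higher. Late atretic follicles had 1 lower and 1 higher. Tested genes at the same level had shares of 5.56% lower and 10.9% higher for the early comparison. For the late comparison these were 0.509% lower and 5.09% higher. The 8 genes were selected on group means of the same comparisons, so nothing is read from the class counts. The AMPA receptor subunit genes GRIA1 and GRIA3 were called in both comparisons in opposite directions. GRIA1 had means of 178 in healthy, 57.1 in early atretic and 56.8 in late atretic follicles. It fell by 1.63 ± 0.35 in early (adjusted p = 9.0e-05) and by 1.61 ± 0.50 in late atretic follicles (log2; adjusted p = 0.032, per the authors' deposited tables). GRIA3 had means of 40.0 in healthy, 263 in early atretic and 369 in late atretic follicles. It rose by 2.71 ± 0.65 in early (adjusted p = 0.00072) and by 3.24 ± 0.68 in late atretic follicles (log2; adjusted p = 0.00019, per the authors' deposited tables). Both atretic groups held more GRIA3 and less GRIA1 than healthy follicles.

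The other glutamate receptor genes that passed were lower in early atretic follicles. GRIN2D, a regulatory subunit of the NMDA receptor, averaged 127 in early atretic and 558 in healthy follicles and fell by 2.14 ± 0.41 (log2; adjusted p = 1.4e-05, per the authors' deposited table). In late atretic follicles it averaged 276, against 543 in healthy follicles of that table, and did not pass (-0.98 ± 0.71, adjusted p = 0.74, per the authors' deposited table). GRIN1, the subunit that NMDA receptors require, had means of 7.63 in healthy, 5.03 in early atretic and 11.7 in late atretic follicles, near the level limit. GRIK2, a kainate receptor subunit, averaged 78.5 in early atretic and 249 in healthy follicles and fell by 1.67 ± 0.43 (log2; adjusted p = 0.0020, per the authors' deposited table). Late against early atretic follicles gave 1.24 ± 0.42 for GRIK2 (unadjusted p = 0.0029, adjusted p = 0.41, per the authors' deposited table). GRIK5, a kainate subunit that needs a partner such as GRIK2, had means of 927 in healthy, 866 in early atretic and 666 in late atretic follicles and was not called (adjusted p = 0.90 and 0.70, per the authors' deposited tables).

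Of 15 nicotinic receptor genes matched by name, 3 reached the level. Among these 3, 2 were higher in early atretic follicles and none passed in late atretic follicles, where 1 had an unadjusted p below 0.05. Over tested genes at that level, 10.9% were higher in early and 5.09% in late atretic follicles. CHRNA3, 1 of the 2, reached the level in the atretic groups alone, which favours a higher call, so the count is no result about the class. CHRNB1, the beta subunit of the muscle receptor, averaged 125 in early atretic and 33.7 in healthy follicles. It rose by 1.88 ± 0.39 (log2; adjusted p = 4.5e-05, per the authors' deposited table). CHRNA3, a subunit of the receptor of autonomic ganglia, averaged 26.3 in early atretic and 1.03 in healthy follicles and was called higher (4.66 ± 1.30, log2; adjusted p = 0.0049, per the authors' deposited table). CHRNA3 averaged 14.8 in late atretic follicles, against 1.00 in healthy follicles of that table (adjusted p = 0.41, per the authors' deposited table). The genes beside CHRNA3 in the RefSeq assembly NDDB_SH_1, CHRNA5 and CHRNB4, stayed under the level limit, with highest means of 2.40 and 8.90 in the authors' deposited tables. CHRNE, the epsilon subunit of the adult muscle receptor, had means of 47.5 in healthy, 41.5 in early atretic and 45.1 in late atretic follicles and was not called.

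GABA-A receptor genes had 0 of 4 members called in the authors' deposited tables, with none at an unadjusted p below 0.05 in early atretic follicles and 1 higher and 1 lower in late atretic follicles. GABRB2 had means of 33.8 in healthy, 16.8 in early atretic and 10.8 in late atretic follicles (adjusted p = 0.26 and 0.35 against healthy follicles, per the authors' deposited tables). GABRB1 averaged 11.3 in late atretic and 1.11 in healthy follicles (3.40 ± 1.45, log2; adjusted p = 0.23, per the authors' deposited table). GABRA2 had means of 42.9 in healthy, 33.8 in early atretic and 32.8 in late atretic follicles, and GABRE had means of 10.8, 9.47 and 12.5 in the same order.

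**Figure D3:**
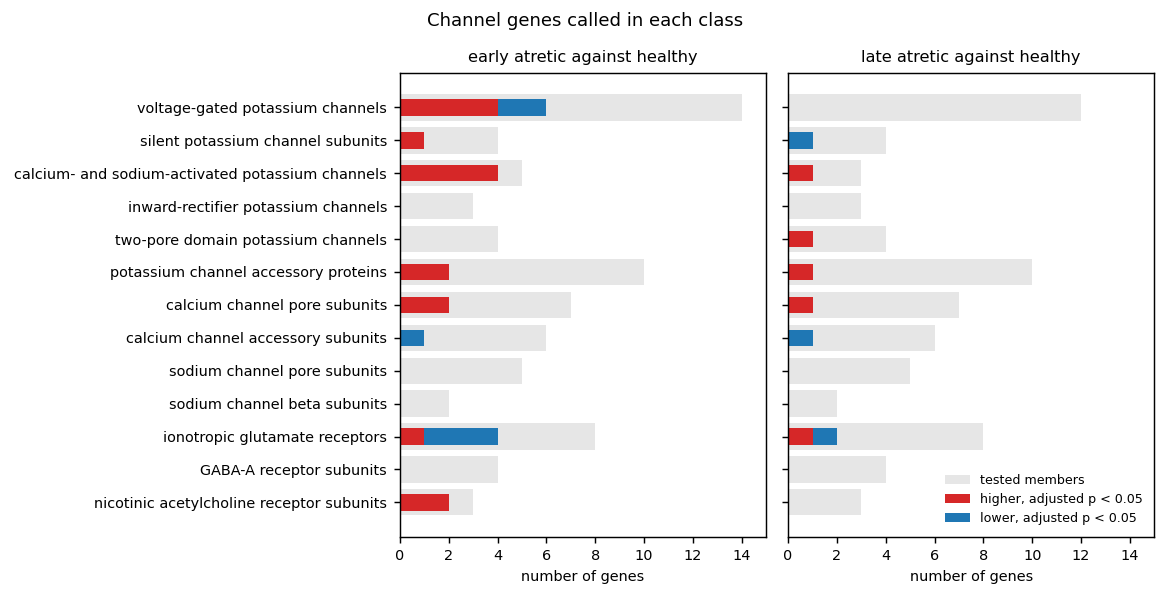
Number of channel genes tested (grey) and called higher (red) or lower (blue) in each class, with early atretic and late atretic follicles each set against healthy ones. Only genes that reached a mean of 10 are counted, and 8 of the 16 higher genes in early atretic follicles had a healthy mean under 3, so the bars describe the genes kept and not whole classes. The sodium channel, inward-rectifier and GABA-A classes have no call in either panel.

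The comparison of late with early atretic follicles asks what differs as atresia advances. The 10 members with an unadjusted p below 0.05 include KCNQ1, KCNE5 and GRIK2, with higher means in late atretic follicles, and KCND1, KCNH2, CHRNB1, KCNG4 and CACNA1H, with lower ones, but no adjusted p was below 0.13 in the authors' deposited table. KCNH2 averaged 887 in late and 1797 in early atretic follicles of that table (-1.02 ± 0.34, log2; adjusted p = 0.41, per the authors' deposited table). CHRNB1 averaged 53.8 in late and 126 in early atretic follicles (-1.23 ± 0.49, log2; adjusted p = 0.66, per the authors' deposited table). Of the 22 members called in early atretic follicles, 6 were called again in late atretic follicles in the same direction, 13 had a p there that did not pass and 3 had no p. Whether the early and late changes of these 13 differ is not shown by that, since none passed in late against early atretic follicles. Over all genes 2251 were called in early and 761 in late atretic follicles, so fewer late calls are not particular to the members. How many of all genes were called in both was not counted, so nothing is read from the 6 members.

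**Figure D4:**
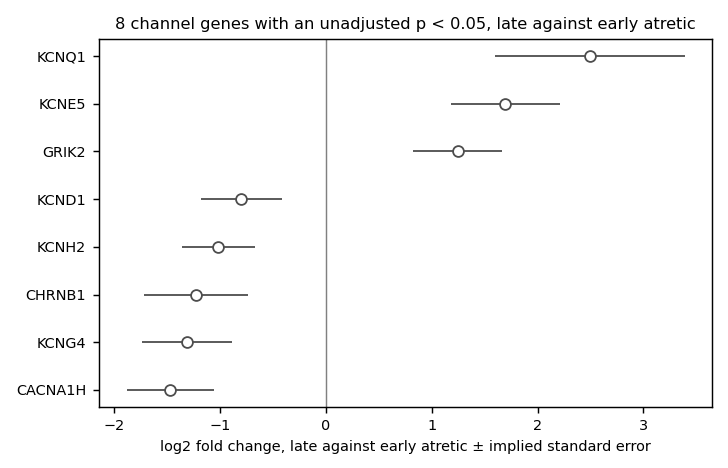
Log2 fold changes in late against early atretic follicles, with implied standard errors, of 8 of the 10 channel genes with an unadjusted p below 0.05. KCNQ1, at 2.49, is the highest and CACNA1H, at -1.47, the lowest of these 8; none passed after adjustment.

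Other genes of membrane ion transport came from 6 lists and entered with no level limit, so their counts stand beside the shares of 8.59% higher and 4.35% lower in early and 3.98% higher and 0.397% lower in late atretic follicles over all tested genes. Of 48 other cation channel genes, 42 had a p in early atretic against healthy follicles, with 5 higher (11.9%) and 2 lower (4.76%), and 3 of 41 were higher and 1 lower in late atretic follicles by the authors' deposited adjusted p. TRPV2, a calcium-permeable channel also known from macrophages, had means of 15.3 in healthy, 140 in early atretic and 227 in late atretic follicles, and its log2 fold changes were 3.20 ± 0.65 and 3.93 ± 0.63 in the authors' deposited tables (adjusted p = 3.4e-05 and 1.2e-07). CNGA3, a cyclic nucleotide-gated channel of cones, had means of 1.08 in healthy, 77.3 in early atretic and 109 in late atretic follicles (adjusted p = 0.00023 and 8.2e-08, per the authors' deposited tables).

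Genes of calcium stores, pumps and channel partners were counted in the same way. Of 17 genes of calcium store release and refilling, early atretic follicles had 2 higher (11.8%) and 1 lower (5.88%), and 1 was higher in late atretic follicles (5.88%). The early shares are near 8.59% and 4.35% over all tested genes, so the counts are no result about these genes. ORAI2, a pore of store-operated calcium entry, rose by 2.41 ± 0.41 and 2.19 ± 0.50 (log2; adjusted p = 3.3e-07 and 0.00098, per the authors' deposited tables) in early and late atretic follicles. ITPR1, the inositol trisphosphate receptor that releases stored calcium, averaged 1785 in early atretic and 3586 in healthy follicles and fell by 1.01 ± 0.26 (log2; adjusted p = 0.0016, per the authors' deposited table). ATP2A3, a pump that refills the stores, rose by 1.76 ± 0.57 in early atretic follicles (log2; adjusted p = 0.022, per the authors' deposited table).

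Of 20 pump and exchanger genes, 19 had a p, with 2 higher (10.5%) and 1 lower (5.26%) in early and 1 higher (5.26%) in late atretic follicles. These early shares too are near 8.59% and 4.35% over all tested genes. ATP2B3, a plasma membrane calcium pump, had means of 6.94 in healthy, 215 in early atretic and 290.3 in late atretic follicles and passed in both comparisons (adjusted p = 0.0018 and 1.1e-09, per the authors' deposited tables). SLC8A1, the sodium-calcium exchanger, rose by 1.75 ± 0.54 in early atretic follicles (log2; adjusted p = 0.013, per the authors' deposited table), while SLC12A7, a potassium-chloride cotransporter, fell by 0.82 ± 0.26 (adjusted p = 0.018). ATP2B4, another such calcium pump, had means of 414 in healthy, 522 in early atretic and 597 in late atretic follicles and was not called. Of 36 partner genes with a p, early atretic follicles had 7 higher (19.4%) and 4 lower (11.1%). In late atretic follicles 0 of 37 passed in the authors' deposited table, against 4 higher and 1 lower at an unadjusted p below 0.05. MUSK, a kinase that clusters the muscle nicotinic receptor, rose by 2.40 ± 0.38 (log2; adjusted p = 3.7e-08), and GEM, a small GTPase that inhibits voltage-gated calcium channels, by 1.85 ± 0.39 (adjusted p = 7.0e-05) in early atretic follicles of the authors' deposited table. RAPSN, the anchor of that receptor, averaged 223 in early atretic and 111 in healthy follicles and rose by 1.00 ± 0.27 (log2; adjusted p = 0.0030, per the authors' deposited table). FGF12, which binds sodium channel pores, fell by 0.76 ± 0.19 (log2; adjusted p = 0.00098, per the authors' deposited table). Of 22 chloride channel genes 1 was higher (4.55%) in each comparison with healthy follicles, namely ANO6, a phospholipid scramblase and channel (1.31 ± 0.33 and 1.5 ± 0.35, log2; adjusted p = 0.0014 and 0.0011, per the authors' deposited tables). CFTR, the chloride channel of secretory epithelia, averaged 22.0 in early atretic and 81.1 in healthy follicles (adjusted p = 0.13, per the authors' deposited table), and LRRC8C and ANO10 were not called either. Of the other ligand-gated channel genes, 0 of 14 with a p passed in early and 0 of 13 in late atretic follicles in the authors' deposited tables, against 2 lower and 0 at an unadjusted p below 0.05. GLRB, the glycine receptor beta subunit, reached an adjusted p of 0.062 for early atretic follicles by the authors' deposited table. The ATP receptor genes P2RX3 and P2RX5 had highest means of 4.13 and 15.3.

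Markers of other cell types moved with the same groups, and their part in the channel results was not tested. Their counts stand beside 8.59% higher and 4.35% lower in early atretic follicles over all tested genes. For late atretic follicles these shares were 3.98% and 0.397%. Macrophage markers were higher in 8 of 13 genes in early atretic follicles and in 7 of 12 in late ones, each against healthy follicles, and their summed means were 561 in healthy, 4169 in early atretic and 8008 in late atretic follicles. KCNN4, KCNA5 and TRPV2, all called higher in early atretic follicles, are also expressed by macrophages. They are not a full list of macrophage channels, and where their RNA came from was not tested. Fibroblast markers were higher in 6 of 8 genes in early and 4 of 8 in late atretic follicles, with sums of 3099 in healthy, 15295 in early atretic and 20296 in late atretic follicles. Endothelial markers were higher in 3 of 11 and 1 of 11 genes, with sums of 2050 in healthy, 3122 in early atretic and 1833 in late atretic follicles. Most of these sums is VWF, with means of 1772, 2235 and 1174 in the same order. The log2 fold change was positive for 11 of 11 endothelial genes in early and 10 of 11 in late atretic follicles. Smooth muscle and pericyte markers were higher in 3 and lower in 1 of 10 genes in early atretic follicles, and higher in 3 in late atretic follicles, with sums of 10662 in healthy, 8045 in early atretic and 9336 in late atretic follicles. Most of these sums is MYH11 and CSPG4, and the log2 fold change was positive for 8 of 10 genes in early and 5 in late atretic follicles. Neuron markers were higher in 2 and lower in 1 of 10 genes in early atretic follicles and in none in late atretic follicles, with ELAVL4 at 0 in healthy follicles. Their sums were 1634 in healthy, 7300 in early atretic and 3199 in late atretic follicles, most of it from TUBB3. Of the glia markers, 1 was higher of 6 with a p in early and of 5 in late atretic follicles, with sums of 108 in healthy, 73.0 in early atretic and 100.3 in late atretic follicles. GFAP had means of 95.0, 26.0 and 35.8 in the same order. The log2 fold change was positive for 5 of the 6 glia genes in early and 3 of the 5 in late atretic follicles. Neutrophil markers were higher in 2 of 4 genes in early and 2 of 6 in late atretic follicles, and their sums were 513 in healthy, 1812 in early atretic and 707 in late atretic follicles. Most of these sums is LTF, with means of 465, 1164 and 384 in the same order. S100A8 and S100A9, with means of 201 and 349 in early atretic and 12.6 and 19.7 in healthy follicles, had no p there. Among neutrophil genes with a p, the log2 fold change was positive for 4 of 4 in early and 5 of 6 in late atretic follicles. None of 11 lymphocyte markers passed in the authors' deposited tables, against 1 and 2 at an unadjusted p below 0.05, and their sums were 467 in healthy, 586 in early atretic and 846 in late atretic follicles. Of the theca markers 1 of 4 was lower in early and 0 of 5 in late atretic follicles, with sums of 5317 in healthy, 3908 in early atretic and 4311 in late atretic follicles. STAR, of that list, had means of 57.9 in healthy, 717 in early atretic and 1286 in late atretic follicles. It had no p in early atretic follicles and did not pass in late ones (4.51 ± 1.51, log2; adjusted p = 0.061, per the authors' deposited table). Among theca genes with a p, the log2 fold change was positive for 1 and negative for 3 in early atretic follicles. In late atretic follicles it was positive for 1, STAR, and negative for 4. The glia marker SOX10 and the oocyte markers BMP15 and ZP4 were listed at 0 in healthy follicles, and all 7 oocyte markers stayed under 10.

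The 13 granulosa markers, FSHR, FOXL2 and AMHR2 among them, had means above 10 in each group. So did markers of other lists, such as INSL3 and ALPL of theca with healthy means of 847 and 2951, so this level does not test the label granulosa cells. Of the granulosa markers, 9 were lower in early atretic follicles, beside 4.35% of all tested genes. None passed in late atretic follicles, where 3 were lower at an unadjusted p below 0.05. Their summed means were 989307 in healthy, 298062 in early atretic and 524660 in late atretic follicles. In bulk RNA, fewer granulosa cells and less RNA of a gene per cell cannot be told apart.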

How the data were processed

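RNA of granulosa cells was harvested with Trizol and made into Illumina libraries, per the labels' protocols. The deposited group columns were read as a signal, namely group means of normalized read counts, since they are not whole numbers and each table is scaled on its own. The deposited log2 fold changes compare the first group with the second, per the file headers, and equalled the log2 ratio of group means to within 0.01 at means above 50. The deposited p-values and adjusted p-values come from the authors, per the file headers. Repeating the Benjamini-Hochberg adjustment gave the same values to within a relative difference of 7.7e-05. The submitters' processing notes name Bowtie 0.12.2 and, as genome builds, mm8 and mm9, which are of mouse. The counter, the test and any role of these builds were not given in the sources used here. No coordinates or sequences are printed.

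From 21253 rows per table, 452 repeats were dropped. The rule for members matched gene names to the 6 channel families and required a group mean of 10. The implied error is the absolute log2 fold change over the z value of its p. A check on simulated data used p-values made with the same formula, so it covers the arithmetic only. Whether the deposited p-values came from such a test was not checked. Medians, counts and alternatives were computed with Python 3.11.15, pandas 2.3.3, numpy 2.4.6 and scipy 1.17.1, and figures with matplotlib 3.10.9. Genes under LOC numbers were matched to names by RefSeq gene ID in a table of the assembly NDDB_SH_1; 73 of the 75 members are in it by symbol. The text names every member called, the 3 members of each class with the highest mean, members with a highest mean between 8 and 12, members with an unadjusted p below 0.05 in at least 2 comparisons, and in each list of other transport genes those with the smallest adjusted p. Others were named after their values were seen. The members and lists were chosen with earlier results of these data known. CYP17A1, CYP11A1, CD163, FCGR3A and LYNX1 of the lists were not analysed here, and a few genes that the rule for naming picks are not reported here. No column of per-sample values was left out.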

Additional observations from a re-analysis of the deposited data

How the results depend on the processing

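No paired analysis was possible because the tables hold group means, with no value per sample; for the same reason no replicate could be left out. The 22 members called in early atretic against healthy follicles ranged from 15 to 24 under the alternatives tried: a stricter adjusted p, a log2 fold change of at least 1, other level limits, adjustment over genes that reached the level, and both ways of re-centring fold changes. With a minimum mean of 50 in place of 10, 9 of the 15 were higher, or 60.0%, against 72.7% of the 22, and at an adjusted p below 0.01, 10 of 16 were higher, or 62.5%. In late atretic against healthy follicles, the 8 calls became 5 at an adjusted p below 0.01, of which 4 were higher, and 6 with a minimum mean of 50, of which 3 were higher; re-centring to equal group totals left 7, with 5 higher. In late against early atretic follicles the count was 0 under each of the 8 alternatives. The log2 ratio of group totals was -0.11 in the early and -0.10 in the late atretic comparison with healthy follicles. Re-centring to equal group totals subtracts this ratio, which raises each fold change. The 30 fold changes of called members kept their sign under re-adjustment over genes at the level, both re-centrings and a pseudocount of 1. Of the first 3 of these, which give a new p, only equal totals ended a call, that of CACNA2D3 in late atretic follicles. With a pseudocount of 1, KCNF1 in early atretic follicles moved to 3.38 and KCNK12 in late atretic follicles to 4.06, both by more than the implied error. Means of a few reads in healthy follicles limit the fold changes of these genes, and unknown depth limits the rest.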

Other observations

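Some channel genes are listed under LOC numbers, and the choice by name missed them. RefSeq names 4 such genes, and SCN10A, a sodium channel pore known from sensory neurons, is one with a high mean. It had means of 4767 in healthy, 3075 in early atretic and 2160.0 in late atretic follicles, and log2 fold changes of -0.63 ± 0.31 in early (adjusted p = 0.19) and -1.10 ± 0.39 in late atretic follicles (adjusted p = 0.095) in the authors' deposited tables. SCN1A, next to SCN9A in the assembly NDDB_SH_1, had means of 337 in healthy, 182 in early atretic and 471 in late atretic follicles and was not called in the authors' deposited tables. GABRR2 had a highest mean of 1.63, and CACNA2D4 was listed at 0 in each group.

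Of 29 pairs of channel genes that neighbour each other in that assembly, none consists of 2 members and 13 hold 1. Beside KCNA2, with means of 28.4 in healthy, 6.97 in early atretic and 25.5 in late atretic follicles, KCNA3 had a highest mean of 6.81 and KCNA10 was at 0 in the authors' deposited tables.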
